A study of Arabidopsis thaliana with 12 samples.

Results

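Seedlings of Arabidopsis thaliana that overexpress RDM4 were compared with wild type seedlings after 48 h at 4 °C, on 2 microarrays of each genotype. These 4 arrays were taken, by their titles, from a series of 12 that also covers 0 h (plants not yet chilled) and 3 h at 4 °C, with 2 arrays of each genotype at each time. The 35S::RDM4 plants carry RDM4 behind the 35S promoter, which drives expression in most tissues at all times, and the wild type is the Col ecotype from which they derive. The labels speak of overexpression lines but do not say which line, or how many, went into a sample. All plants were 2-week-old seedlings from MS plates, grown at 23 °C by day and 18 °C by night with 16 h of light. RNA was drawn from the leaves of 30 or more seedlings on each plate. Plants kept warm for 48 h are not among the arrays analysed here, and neither the labels nor the files state the time of day at harvest. The labels call the 2 arrays of a group biological replicates. They do not say that these came from separate plates, so the p-values measure the spread between these samples, which may be technical.

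RDM4 (AT2G30280), also known as DMS4, is related to the yeast protein IWR1, which binds RNA polymerase II. In plants it acts with RNA polymerase II and with the plant-specific RNA polymerase V, and it is needed for RNA-directed DNA methylation, in which small RNAs guide methyl marks to matching DNA. Chilling is read by plants in part through the CBF (DREB1) transcription factors, which appear within hours of cold and switch on the COR genes, whose products protect membranes and proteins during freezing. The comparison at 48 h asks which transcripts differ between the genotypes once the early cold response has passed into acclimation.

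The arrays are one-colour Agilent arrays, on which a brighter spot stands for more RNA of that gene. Levels below are log2 signals minus the array's own 75th percentile, so 0 is the brightness of a spot at that percentile, and levels of different genes are not set against each other. The gene lists below were chosen with earlier results of these data known. Their counts therefore describe their members and are no independent test. A difference is the level in overexpression plants minus that in wild type plants. Each was tested with limma in a fit over all 12 arrays, and a gene passed where its p, adjusted over all 20192 genes tested by Benjamini-Hochberg, was below 0.05. The probes well above background made up 74.0 and 73.3 % on the overexpression arrays and 74.6 and 73.7 % on the wild type arrays. The 75th percentile of signal was 3828 and 5585 on the overexpression arrays and 4057 and 4657 on the wild type arrays. Across genes, which are not independent replicates, replicate arrays correlated at r = 0.997 in overexpression and 0.998 in wild type. Overexpression replicate 1 and wild type replicate 2 share a slide. Wild type replicate 1 was scanned on another day than the other 3 arrays.

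The transgene was read plainly. The level of RDM4 was 5.70 and 5.44 in overexpression plants, against 0.09 and 0.12 in wild type plants. The groups lay far apart, and the difference of 5.46 ± 0.09 (SE, n = 2 arrays a genotype) is 44.1-fold (95 % interval of the log2 difference 5.25 to 5.68, limma adjusted p = 4.24e-08). Within the shared slide the difference was 5.58. The probe does not separate RNA of the transgene from that of the native gene, so it does not tell what the endogenous gene did. Unscaled, the RDM4 spots had signals of 199670 and 242640 in overexpression plants and 4333.6 and 5092.5 in wild type plants. Between the 2 overexpression arrays the RDM4 signal differed by less than the 75th percentile did. Among the 278 genes with a mean signal of at least 100000 at 48 h, the scaled level was higher on overexpression replicate 1 than on replicate 2 for 265. The median gap between these replicates was 0.20 for the 278 genes and −0.00049 for all genes tested.

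Of 20192 genes, 808 (4.00 %) passed at 48 h, with 562 (2.78 %) higher and 246 (1.22 %) lower in overexpression plants. Most of the differences were small. The median size among the passing genes was 0.35 on the log2 scale, and 56 genes were at least 2-fold higher while 10 were at least 2-fold lower. The 4 arrays did not overlap between genotypes for any of the 808 genes, nor did they for 45.8 % of all genes tested. The direction within the shared slide was therefore that of the fit for all 808. The number of passing genes varied by setting: it was 381 with slide as a block, 343 with another background correction and 250 when the 48 h arrays alone were fitted.

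**Figure D1:**
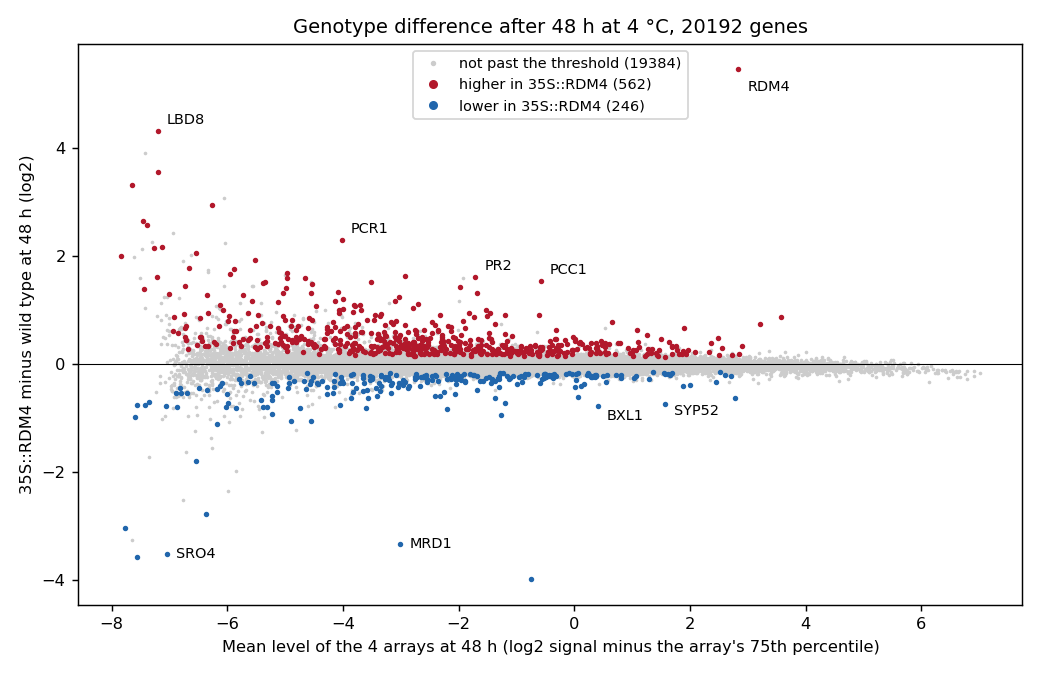
Each point is 1 of 20192 genes. The horizontal axis is its mean level over the 4 arrays at 48 h (log2 signal minus the array's 75th percentile) and the vertical axis is the level in overexpression plants minus that in wild type plants. Coloured points passed at adjusted p below 0.05, 562 of them above 0 and 246 below, and RDM4 stands alone at 5.46.

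Few genes of the cold pathway passed at this time, and CBF1 was among them. CBF1 (AT4G25490), 1 of the transcription factors that open the cold response, had levels of −1.57 and −1.55 in overexpression plants, against −2.20 and −2.25 in wild type plants. Both overexpression arrays lay above both wild type arrays, by 0.67 ± 0.05 (SE, n = 2, 1.59-fold, adjusted p = 1.56e-04). Under normexp background correction the CBF1 difference was 0.62 and its adjusted p was 0.0604. All 4 tested members of the family had positive differences, from 0.06 to 0.67, with a median of 0.33. The members other than CBF1 did not pass. They are close relatives of CBF1, and cross-hybridisation was not tested. CBF2 was at 0.22 and 0.29 in overexpression plants, against −0.09 and −0.09 in wild type plants, a difference of 0.35 with a 95 % interval of −0.34 to 1.03 (adjusted p = 0.617). CBF3 was at 0.31 and 0.33 in overexpression plants, against 0.27 and 0.24 in wild type plants, and its interval ran from −0.24 to 0.37. CBF4 differed by 0.31 (adjusted p = 0.325). A difference of the size seen for CBF1 lies inside the interval of CBF2 and outside that of CBF3.

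The genes that the CBF factors switch on mostly did not pass. Of 20 tested genes of the CBF regulon and cold effectors, 1 passed, beside 4.00 % of all genes, and the median difference was −0.03, against −0.0056 over all genes. COR15A, a chloroplast protein that protects membranes, had levels of 5.50 and 5.29 in overexpression plants and 5.55 and 5.34 in wild type plants, a difference of −0.05 (adjusted p = 0.819). The dehydrin COR47 differed by −0.10 (adjusted p = 0.865), RD29A by −0.04 (0.921) and KIN1 by −0.16 (0.633). With slide as a block the differences of COR15A, COR47, RD29A and KIN1 turned to 0.10, 0.32, 0.20 and 0.16, and none passed. Other probes of COR47 and RD29A differed by up to 0.09 and 0.23. The median of the list ran from −0.11 to 0.06 over the other settings. All 4 genes were among the 278 bright ones, of which only 1 passed at 48 h. Their lack of a call stands beside that share too. Unscaled, COR15A had 173360 and 219060 in overexpression plants and 190290 and 189460 in wild type plants, and KIN1 had 328280 and 351600 in overexpression plants and 350040 and 362010 in wild type plants. The member that passed was RD29B, a gene that answers to abscisic acid. Its levels were −3.39 and −3.30 in overexpression plants, against −4.25 and −4.38 in wild type plants, 1.96-fold higher (log2 0.97, adjusted p = 4.47e-04).

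Regulators around the CBF genes that passed differed by at most 0.29. Of 15 regulators upstream of CBF, 1 passed, beside 4.00 % of all genes, the light-signalling factor PIF3 at 0.18. Among 15 early cold transcription factors, 3 were higher, beside 2.78 % of all genes, and none lower, with a median of 0.12. These were WRKY40 at 0.29, ERF6 at 0.23 and DEAR1 at 0.21. The probes of ERF6 disagreed, with differences of −0.15 to 0.23. Of the 15, 1 passed without either overexpression array and none without either wild type array.

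Genes of iron uptake were mostly higher in overexpression plants. Of 17 tested members 12 were higher and none lower, beside 2.78 % of all genes, and the median difference was 0.56. Leaves and roots short of iron raise a small group of bHLH transcription factors, which with the factor FIT drive the reductase FRO2 and the iron carrier IRT1 at the root surface. All 4 members of that bHLH group passed. BHLH100 was at −3.92 and −3.80 in overexpression plants, against −5.42 and −5.50 in wild type plants, 3.03-fold higher (log2 1.60 ± 0.09, SE, n = 2, adjusted p = 2.57e-05). BHLH101 was at −3.40 and −3.38 in overexpression plants, against −4.58 and −4.61 in wild type plants, 2.31-fold higher. In both genes the arrays of a genotype lay close together and the genotypes well apart. BHLH038 differed by 1.09 and BHLH039 by 1.33. The last 2 are close relatives, and cross-hybridisation between them was not tested. The fit pools the spread of all 12 arrays, and BHLH039 was at −6.47 and −7.40 in wild type plants before cold. The adjusted p of BHLH039 was 0.0353, but 0.0872 under normexp correction and 0.0961 to 0.167 when any 1 of the 4 arrays was left out.

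Transcripts of the uptake proteins themselves differed less. FRO2, the ferric reductase, was at 0.92 and 1.18 in overexpression plants, against 0.28 and 0.25 in wild type plants, 1.72-fold higher (log2 0.78, adjusted p = 1.86e-03). IRT1, the main iron importer of the root epidermis, was at 1.40 and 1.40 in overexpression plants, against 0.80 and 0.72 in wild type plants, 1.56-fold higher. The related carrier IRT2 differed by 0.37. NAS2 and NAS4, which make the iron chelator nicotianamine, differed by 0.56 and 0.32, and the regulator PYE by 0.31. The factors MYB10 and MYB72, which act under iron shortage in roots, differed by 0.73 and 2.15. MYB72 was not well above background on either wild type array, and is described with the dim genes below. When only genes above background on all 4 arrays were kept, 11 of 16 iron members were higher.

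5 members of the iron list did not pass. FIT1, the factor that partners the bHLH group, differed by 0.20 (adjusted p = 0.106), BTS by 0.17 and NAS1 by 0.10. The ferritins FER1 and FER4, which store iron, differed by −0.17 (adjusted p = 0.368) and −0.08 (0.487). Over 19 other settings of the analysis the iron list had 9 to 12 higher members and none lower, with medians of 0.47 to 0.61. Before cold the same list had 2 members higher and 2 lower, beside 5.23 % and 8.63 % of all genes, and a median of 0.00.

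Because IRT1 and its regulators are best known from roots, root markers bear on this group. The tissue is labelled as leaf, yet all 14 root markers tested, among them PYK10 and PHT1;1, were well above background on all 4 arrays. Their summed level, as a mean over the list, was −0.03 to 0.06 in overexpression plants and −0.09 in wild type plants, and the median difference was 0.02. 2 root markers were higher, PHT1;1 by 0.48 and IRT1 itself, which both lists hold, and RHD6 was lower by 0.28 on the log2 scale. None of 8 leaf mesophyll markers passed, beside 4.00 % of all genes. Their mean level was 5.49 to 5.84 in overexpression plants and 5.74 to 5.83 in wild type plants, and their median difference of −0.13 ran from −0.30 to 0.25 over the other settings. The part of root material in the iron result was not tested. In whole-tissue RNA, fewer cells of a type and less RNA per cell cannot be told apart.

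Most of the receptor kinases of the CRK family that were listed and tested were higher in overexpression plants. These are cysteine-rich kinases at the cell surface, several of which respond to pathogens and salicylate. Of 9 tested, 6 were higher, beside 2.78 % of all genes, and none lower, with a median of 0.79. CRK6 was at −4.10 and −4.13 in overexpression plants, against −5.79 and −5.83 in wild type plants, 3.24-fold higher (log2 1.70 ± 0.05, SE, n = 2, adjusted p = 8.54e-07). CRK7 was at −5.17 and −4.84 in overexpression plants, against −6.52 and −7.02 in wild type plants (log2 1.77, adjusted p = 3.99e-03, and 0.069 with slide as a block). CRK4 was 2.02-fold higher, CRK14 1.73-fold and CRK36 1.54-fold. CRK5 differed by 0.51, and its arrays were the nearest to touching, at −6.11 and −6.29 in overexpression plants and −6.80 and −6.62 in wild type plants. CRK5 was above background on 1 of the 2 wild type arrays and CRK13 on neither. When only genes above background on all 4 arrays were kept, 5 of 7 members were higher. Cross-hybridisation between CRK genes was not tested. CRK13 differed by 1.26 without passing (adjusted p = 0.102), CRK10 by 0.17 and CRK11 by −0.13. Before cold, 5 of the 9 were lower in overexpression plants, beside 8.63 % of all genes, and none was higher. Their median was then −0.60. The count of higher members at 48 h was 4 to 7 over the other settings, and the median was 0.25 with the deposited value table.

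Of 28 salicylate and defence genes, 7 were higher, beside 2.78 % of all genes, and 1 lower, beside 1.22 %, with a median of 0.05. PR1, a secreted defence protein used as a marker of salicylate, was at −4.19 and −4.14 in overexpression plants, against −5.62 and −5.92 in wild type plants, 3.05-fold higher (log2 1.61 ± 0.13, SE, n = 2, adjusted p = 2.30e-04). PR2, a glucanase that cuts fungal cell walls, was at −0.89 and −0.91 in overexpression plants, against −2.53 and −2.51 in wild type plants, 3.07-fold higher (adjusted p = 8.54e-07). PCC1, a small defence gene with a daily rhythm, was at 0.08 and 0.31 in overexpression plants, against −1.44 and −1.24 in wild type plants, 2.90-fold higher (adjusted p = 1.67e-04). In all 3 the genotypes were separated by more than 1 log2 unit while arrays of a genotype differed by at most 0.30. ACD6, which promotes salicylate signalling, was 1.92-fold higher, with differences of 0.50 to 0.94 between its probes. PR5 differed by 0.48, DMR6 by 0.29 and SARD1 by 0.27. The last passed narrowly, at an adjusted p of 0.0499.

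Among the members that did not pass, ICS1, which makes salicylate, differed by 0.13, the signalling genes EDS1 and PAD4 by −0.03 and 0.09, and the receptor NPR1 by −0.14. CYP71A13, an enzyme of camalexin synthesis, was the member that fell, by 0.47 on the log2 scale. No member of the list was lower under normexp correction, with slide as a block or with the 48 h arrays alone.

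**Figure D2:**
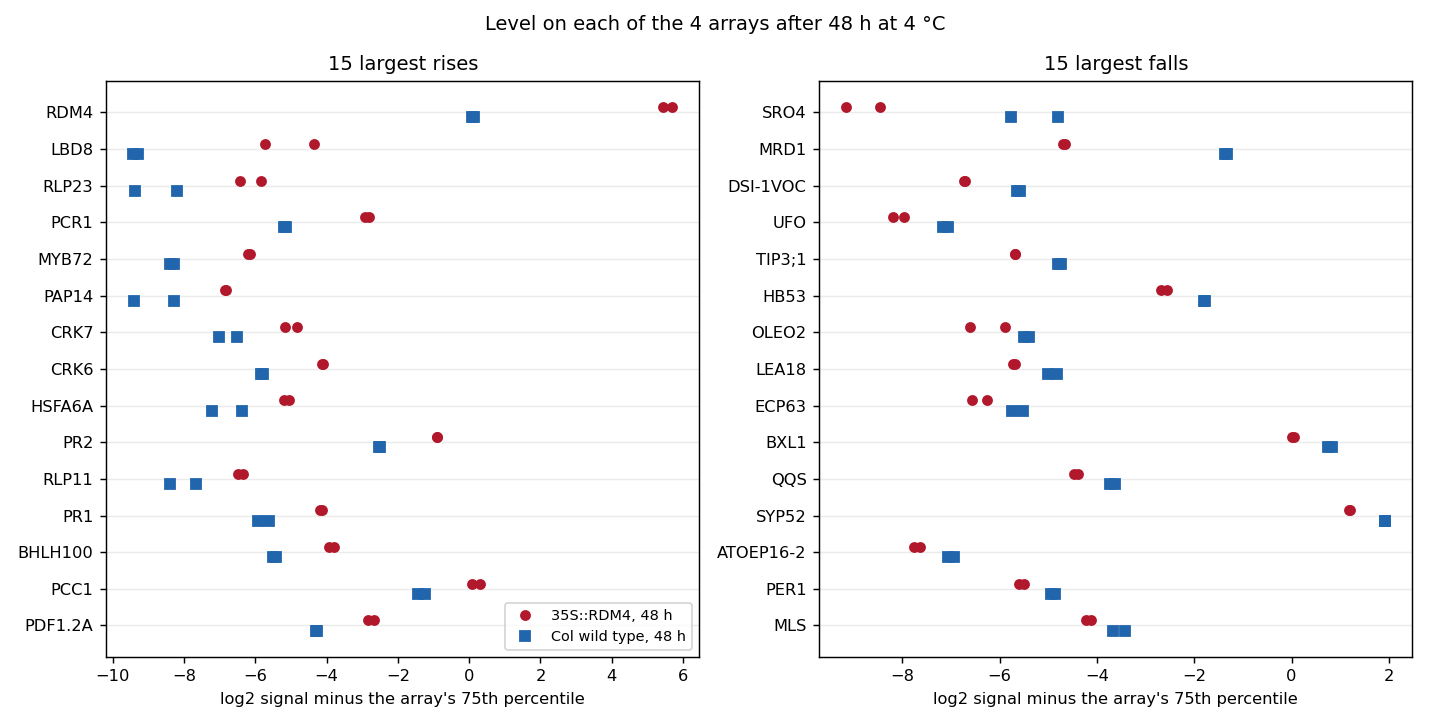
Level on each array at 48 h (log2 signal minus the array's 75th percentile) of the 15 largest rises, left, and the 15 largest falls, right, among genes with a symbol; circles are the 2 overexpression arrays and squares the 2 wild type arrays. RDM4 has both overexpression arrays above 5 and both wild type arrays near 0, and arrays of a genotype lie close together for most genes but not for LBD8, RLP23, PAP14 or SRO4.

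The jasmonate list had 6 of 28 members higher, beside 2.78 % of all genes, and none lower, and a median of 0.08. 4 of the 6 are plant defensins, small antifungal proteins that follow jasmonate and ethylene. PDF1.2A was at −2.83 and −2.68 in overexpression plants, against −4.27 and −4.29 in wild type plants, 2.87-fold higher (log2 1.52 ± 0.06, SE, n = 2, adjusted p = 4.70e-06). PDF1.2B differed by 1.08, PDF1.3 by 0.94 and PDF1.2C by 0.83. These genes are near-identical copies, so their probes may read each other's RNA and do not count as separate findings. The other passing members were the synthesis enzymes LOX4 at 0.42 and AOC2 at 0.37. Without overexpression replicate 2 the list had 3 higher members. No JAZ repressor passed, and neither did the vegetative storage proteins VSP1 and VSP2.

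Abscisic acid genes gave 8 higher of 22 tested, beside 2.78 % of all genes, and none lower, with a median of 0.21. This hormone builds up in drought and cold, and its list mixes genes that raise the response with genes that restrain it. 3 of the 8 are phosphatases that hold abscisic acid signalling back: HAI1 at 0.73, ABI2 at 0.35 and PP2CA at 0.34. HAI1 was at −2.05 and −2.04 in overexpression plants, against −2.73 and −2.82 in wild type plants (1.66-fold, adjusted p = 1.50e-04). The catabolic enzymes CYP707A4 and CYP707A2 differed by 0.44 and 0.20. The synthesis enzyme NCED3 differed by 0.33, the transcription factor RD26 by 0.39 and the responsive gene RD22 by 0.24. The 8 differences were at most 1.66-fold. Without wild type replicate 1 the list had 5 higher members, without wild type replicate 2 it had 4, and with the 48 h arrays alone it had 2.

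The flavonoid list had 6 of 20 members higher, beside 2.78 % of all genes, and none lower, with a median of 0.07. The 6 belong to the late, anthocyanin-forming part of the pathway and its regulators. DFR and LDOX, which turn dihydroflavonols into anthocyanidins, differed by 0.33 and 0.31. The glycosyltransferase UF3GT differed by 0.56 and the vacuolar carrier protein TT19 by 0.43. TT19 was at −0.19 and −0.21 in overexpression plants, against −0.62 and −0.64 in wild type plants. The regulators PAP1 and TT8, which switch these enzymes on, differed by 0.39 and 0.36. TT8 did not pass under normexp correction (limma adjusted p = 0.484) or with slide as a block (0.119). With the 48 h arrays alone the list had 2 higher members. Members of the general phenylpropanoid and early flavonoid steps did not pass.

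Among 22 sugar and starch genes, 4 were higher, beside 2.78 % of all genes. They were the plastid glucose phosphate carrier GPT2 at 0.62, the beta-amylase BAM5 at 0.46, the starch synthesis subunit APL3 at 0.27 and the galactinol synthase GOLS2 at 0.24. The count was 2 without overexpression replicate 1 and 1 without either wild type array. Of 12 senescence and sugar starvation genes, 4 were higher and 3 lower, beside 2.78 % and 1.22 % of all genes. DIN2, a glucosidase, was 1.67-fold higher, with NAP at 0.43, SAG29 at 0.36 and SAG14 at 0.30. SEN1 was 1.51-fold lower, at −0.25 and −0.20 in overexpression plants, against 0.36 and 0.39 in wild type plants, while SAG13 and DIN11 differed by −0.34 and −0.30. Without wild type replicate 1 the list had 3 higher and 1 lower, and without wild type replicate 2 it had 2 of each.

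**Figure D3:**
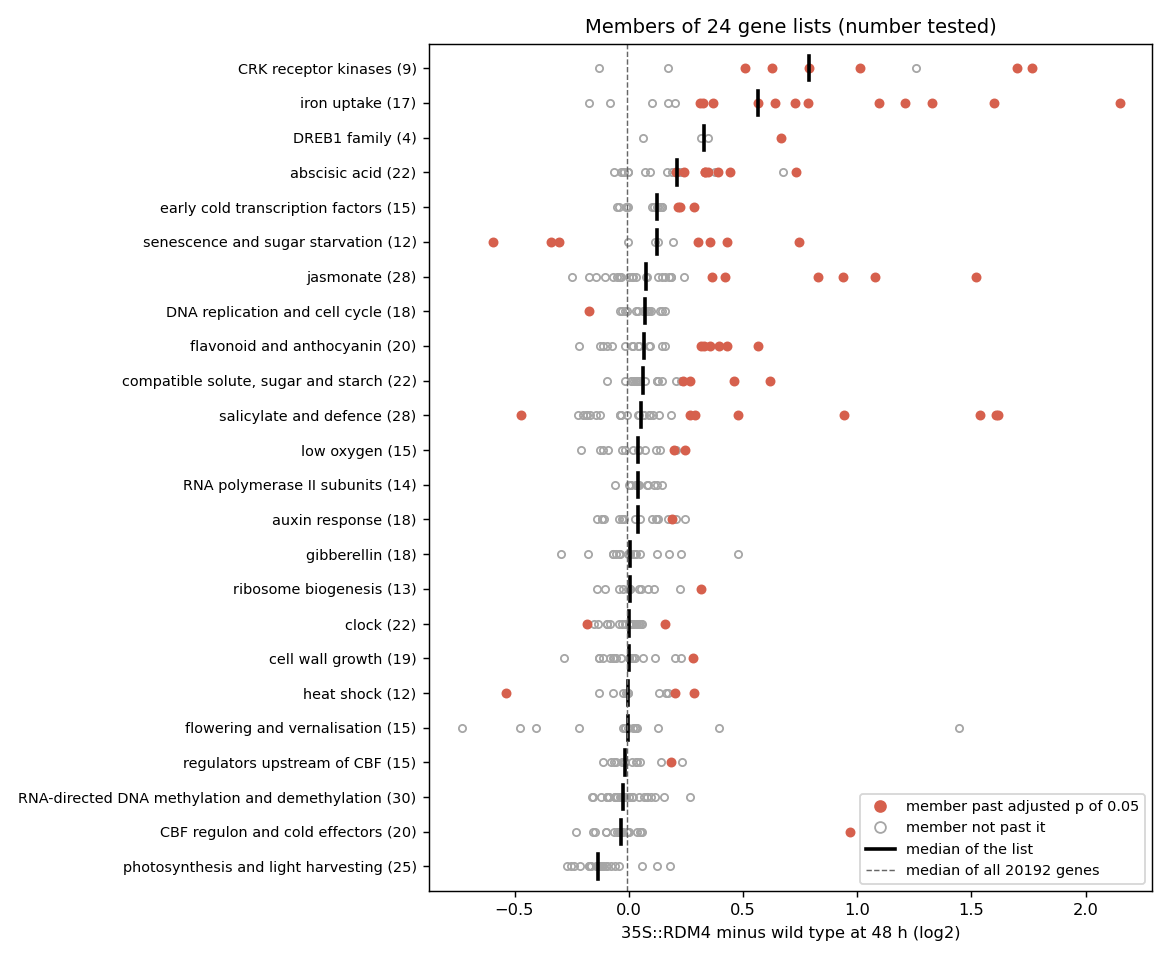
Difference at 48 h (log2, overexpression minus wild type) of every tested member of the 24 gene lists, 1 list per line. Filled points passed at adjusted p below 0.05, open points did not, the bar marks the list's median and the dashed line that of all genes. The iron uptake and CRK lists lie mostly above 0, while most other lists sit around it.

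The genes with the largest rises that have a symbol include receptors and cell-surface proteins. PCR1, a membrane protein linked to cadmium resistance, was at −2.93 and −2.81 in overexpression plants, against −5.20 and −5.15 in wild type plants. The groups were separated by over 2 log2 units, a 4.96-fold difference (log2 2.31 ± 0.05, SE, n = 2, adjusted p = 6.80e-08). HSFA6A, a heat shock transcription factor, differed by 1.67 (adjusted p = 3.93e-03), but was above background on only 1 of the 2 wild type arrays, and its adjusted p was 0.108 with slide as a block.

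5 of the 15 largest rises were not well above background on either wild type array. They entered the test only through the overexpression arrays, where they are high, so their adjusted p is no independent support for a rise. For such genes the fold is given as a lower bound, taken against the dimmest signal that still counts as above background. LBD8, a transcription factor of the LOB family, was measured at −4.36 and −5.72 in overexpression plants and −9.29 and −9.43 in wild type plants, at least 4.54-fold higher (measured means −5.04 and −9.36, adjusted p = 5.94e-04). RLP23, an immune receptor for a peptide of microbial origin, was at least 2.13-fold higher (means −6.13 and −8.79, adjusted p = 5.38e-03). MYB72 was at least 2.05-fold higher (means −6.19 and −8.34, adjusted p = 4.26e-04). RLP11, another receptor-like protein, was at least 1.77-fold higher (means −6.40 and −8.02, adjusted p = 3.31e-03). The purple acid phosphatase PAP14 was at least 1.32-fold higher (means −6.83 and −8.84, adjusted p = 4.56e-03). Each mean pair gives overexpression plants and then wild type plants. None of the 5 passed under normexp correction, where their adjusted p was 0.0655 to 0.474.

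The largest falls began with SRO4 and MRD1. SRO4, of the family of RCD1, was measured at −8.45 and −9.16 in overexpression plants, where it was not well above background, against −4.81 and −5.78 in wild type plants. It was at least 3.42-fold lower (means −8.80 and −5.29, adjusted p = 6.92e-04), and its adjusted p was 0.0927 under normexp correction. SRO4, like ATOEP16-2 and UFO below, entered the test only through the wild type arrays. MRD1 was above background on all 4 arrays, at −4.65 and −4.70 in overexpression plants and −1.36 and −1.32 in wild type plants. It fell by 3.33 on the log2 scale, 10.1-fold (SE 0.53, adjusted p = 0.0100). This SE is wide beside the spread of the 4 arrays, and the fit pools the spread of all 12, among which the 2 overexpression replicates before cold were at −6.17 and −3.98. Without overexpression replicate 2, wild type replicate 1 or wild type replicate 2 the adjusted p of MRD1 was 0.0608, 0.0646 and 0.0616.

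TIP3;1, a water channel of seed storage vacuoles, was at −5.69 and −5.68 in overexpression plants, against −4.74 and −4.80 in wild type plants, 1.89-fold lower (log2 −0.92 ± 0.05, SE, n = 2, adjusted p = 2.07e-05). The oil body protein OLEO2 was at −6.60 and −5.90 in overexpression plants, against −5.39 and −5.51 in wild type plants (log2 −0.80, adjusted p = 0.0477, and 0.244 and 0.145 without wild type replicate 1 or 2). The LEA proteins LEA18 and ECP63, which guard drying cells, differed by −0.79 and −0.78, and the seed peroxiredoxin PER1 by −0.66. MLS, an enzyme of the glyoxylate cycle through which seed oil becomes sugar, differed by −0.62. ATOEP16-2, a channel of the plastid envelope, differed by −0.70 and was not above background in overexpression plants. It was at least 1.05-fold lower (means −7.70 and −7.00, adjusted p = 3.53e-04), a bound close to no change. Under normexp correction its adjusted p was 0.432. In the seed and embryo marker list, of which 5 of 11 genes were tested, OLEO2 was lower and the storage protein CRU3 was higher by 0.68, and 3 did not pass.

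The other large falls were of mixed kind. BXL1, a cell wall xylosidase and arabinofuranosidase, was at 0.04 and 0.01 in overexpression plants, against 0.84 and 0.76 in wild type plants, 1.70-fold lower (adjusted p = 2.07e-04). HB53, a homeodomain transcription factor, was at −2.68 and −2.55 in overexpression plants, against −1.77 and −1.81 in wild type plants, 1.77-fold lower (adjusted p = 1.67e-04). QQS, a gene found only in Arabidopsis that affects starch content, was at −4.47 and −4.40 in overexpression plants, against −3.72 and −3.63 in wild type plants (log2 −0.76, adjusted p = 4.89e-04). DSI-1VOC, a desiccation-induced protein, differed by −1.10. UFO, a floral F-box protein, differed by −0.98 without being above background in overexpression plants, and no fold is given; it did not pass without overexpression replicate 2 or without either wild type array. SYP52, a membrane fusion protein, differed by −0.73 on its brighter probe and by 0.07 on its other.

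Among loci without a symbol, 10 passed with a difference of at least 4-fold, 6 higher and 4 lower. Of them 9 were not above background in 1 genotype and entered the test only through the other. The exception was AT3G01345, named here after its values were seen. It was at −3.05 and −2.42 in overexpression plants, against 1.27 and 1.22 in wild type plants, 15.8-fold lower (log2 −3.98, adjusted p = 2.68e-05). It was also lower before cold, with a difference of −3.54, and at 3 h, with −4.01.

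The lists for the machinery that RDM4 works with held no passing gene. None of 14 tested subunits of RNA polymerase II passed, with a median of 0.04, beside 4.00 % of all genes. None of 30 genes of RNA-directed DNA methylation and demethylation passed either, with a median of −0.03. At that share few or no calls would fall in lists of this size, so these counts are no result about the machinery. None of 25 photosynthesis genes passed, and their median of −0.13 turned to 0.25 with slide as a block. None of 18 gibberellin genes and none of 15 flowering genes passed. All counts of this paragraph stand beside 4.00 % of all genes passing, 2.78 % higher and 1.22 % lower. In the lists for ribosome biogenesis, auxin response, cell wall growth and cell cycle 1 gene each passed: NUC2 at 0.31, IAA3 at 0.19, XTH18 at 0.28 and CYCB1;2 at −0.18. The clock list had RVE4 lower by 0.18 on the log2 scale and BOA higher by 0.16 among 22 tested. In the low oxygen list PCO2 and HRA1 were higher, by 0.25 and 0.20, of 15 tested. Heat shock genes gave DREB2A at 0.20, HSP90.1 at 0.29 and BIP3 at −0.54 among 12 tested. The probes of HSP90.1 ran from −0.87 to 0.29, and the mean over its probes turned the direction to −0.29. Of the single genes of this paragraph, each lost its call when at least 1 of the 4 arrays was left out.

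The genotypes were also compared before cold and at 3 h, on arrays separate from those at 48 h. No slide held both genotypes at 0 h, and none did at 3 h. Genotype and slide therefore cannot be told apart within those times. At 0 h 2798 genes (13.9 %) passed, 1056 (5.23 %) higher and 1742 (8.63 %) lower in overexpression plants. At 3 h 1150 (5.70 %) passed, 521 (2.58 %) higher and 629 (3.12 %) lower. Of the 562 genes higher at 48 h, 167 had been lower at 0 h, which is 29.7 % of the 562 and 9.59 % of the 1742. A further 88 were higher at 0 h as well, and 307 had not passed then. Of the 246 genes lower at 48 h, 134 were also lower at 0 h, which is 54.5 % of them and 7.69 % of the 1742, while 7 had been higher. Only 22 genes were higher and 38 lower at all 3 times.

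Salicylate genes were among those that differed in opposite directions before cold and at 48 h. PR1 was lower before cold, at −3.80 and −3.79 in overexpression plants against −2.71 and −2.72 in wild type plants. At 3 h its arrays overlapped, with −5.70 and −5.69 in overexpression plants and −5.36 and −5.78 in wild type plants, and at 48 h the overexpression plants were higher. PCC1 was also lower before cold, at 0.28 and 0.50 in overexpression plants before cold, against 2.03 and 2.24 in wild type plants. At 3 h it was at −1.57 and −1.64 in overexpression plants, against −1.47 and −1.31 in wild type plants, without passing (adjusted p = 0.276). Wild type levels of both genes were lower at 48 h than at 0 h, and those of PCC1 in overexpression plants were near where they began. Of the 28 salicylate genes, 21 had been lower at 0 h, beside 8.63 % of all genes, with a median of −0.51.

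Of the 15 largest rises at 48 h, 7 were lower at 0 h (PCR1, PAP14, CRK6, PR2, PR1, PCC1 and PDF1.2A), 7 had not passed, and RDM4 itself was higher. At 3 h RDM4, PCR1 and PR2 were already higher, and PDF1.2A was lower. BHLH100 did not pass before cold, at −6.88 and −6.87 in overexpression plants against −6.91 and −6.92 in wild type plants. Its level was higher at 48 h in both genotypes. Of the 15 largest falls, 11 were also lower at 0 h, and MRD1, TIP3;1, QQS, SYP52 and ATOEP16-2 were lower at 3 h too. SRO4 was the exception, higher at 0 h by 1.58, and UFO, BXL1 and MLS had not passed at 0 h. At 0 h SRO4 was at −6.40 and −6.26 in overexpression plants, against −7.55 and −8.27 in wild type plants. These wild type levels are low, and no bound on the fold was computed at 0 h.

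**Figure D4:**
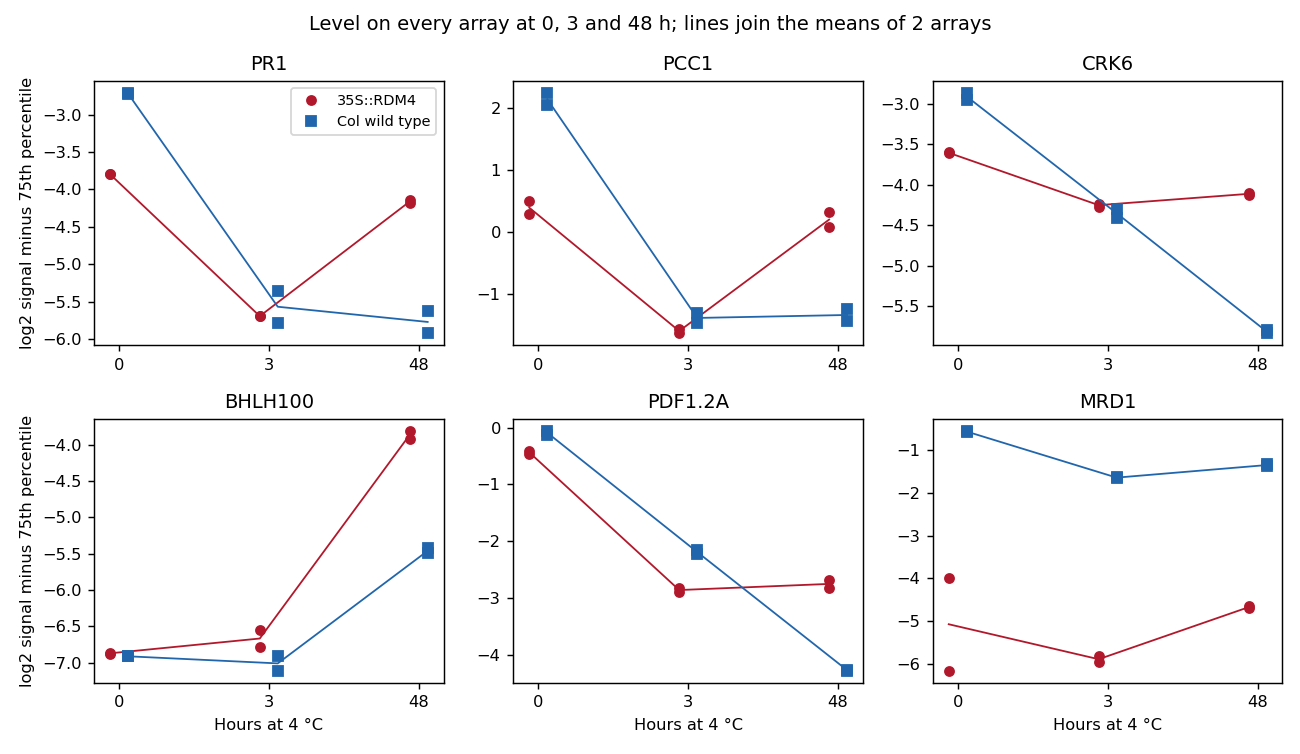
Levels of 6 genes at 0, 3 and 48 h at 4 °C, drawn at even steps, in overexpression and wild type plants. Points are single arrays, 2 per group, and lines join group means in log2 signal minus the array's 75th percentile. PR1 and PCC1 lie lower in overexpression plants at 0 h and higher at 48 h, and MRD1 lies lower at all 3 times.

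The change in the genotype difference between times was tested in the same fit. Against 0 h, 1160 genes (5.74 %) passed, 962 (4.76 %) with a more positive difference at 48 h and 198 (0.981 %) with a more negative one. Under median scaling the share with a more positive difference was 73.2 % of the passing genes, against 82.9 % in the reported scaling. Against 3 h, 326 genes (1.61 %) passed, 257 (1.27 %) more positive and 69 (0.342 %) more negative. PCR1 moved by 3.59 from 0 h, PCC1 by 3.29, PR1 by 2.69 and CRK6 by 2.39. 16 of 28 salicylate genes, 7 of 9 CRK genes, 10 of 17 iron genes, 8 of 15 early cold transcription factors, 6 of 12 senescence genes and 8 of 28 jasmonate genes passed against 0 h. Each of the other function lists had 0 to 4 passing members. CBF1, lower by a difference of −0.22 at 0 h (adjusted p = 0.0207), moved by 0.89. The RDM4 difference changed by −0.0013 (adjusted p = 0.998). These comparisons share the 48 h arrays with the results above. Their 0 h and 3 h sides carry the limit that no slide held both genotypes at those times.

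**Figure D5:**
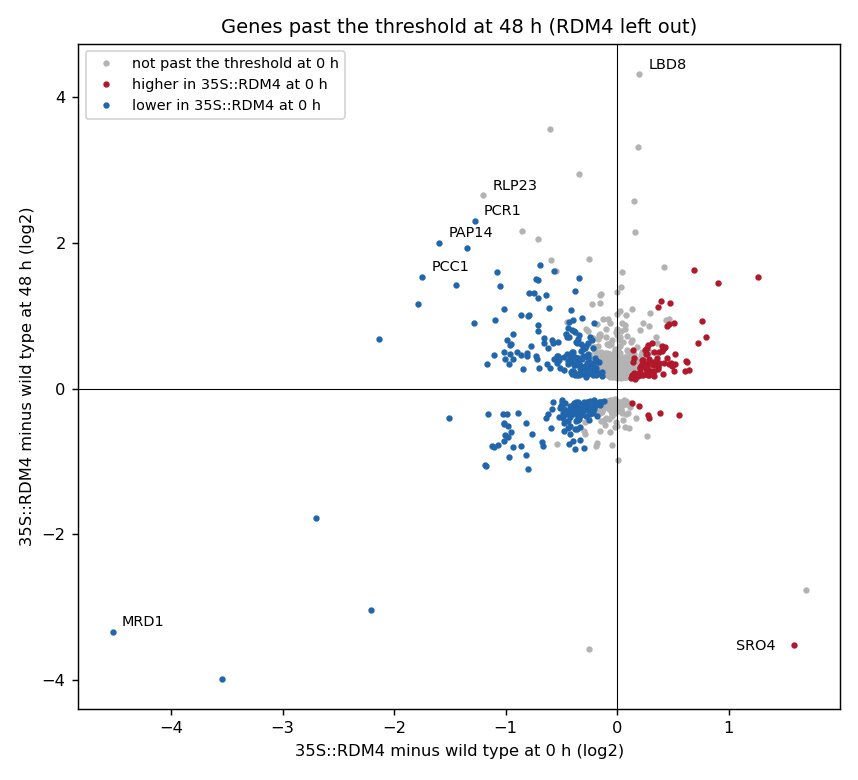
Genotype difference at 48 h (vertical axis) against that at 0 h (horizontal axis) in log2, overexpression minus wild type, for the genes that passed at 48 h, without RDM4. Colours give the result at 0 h; the 167 genes lower at 0 h and higher at 48 h lie in the upper left, and the 134 lower at both times in the lower left.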

How the data were processed

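The files are scanner output of 12 one-colour Agilent 4x44k arrays, made with Feature Extraction 10.7.1.1 and protocol GE1_107_Sep09, per the file headers. The processed signal that the authors deposited is a Cy3 intensity on a linear scale after background subtraction by the scanner software, per the file headers. RNA had an integrity number of at least 7.5, and 150 ng was labelled, per the labels' protocols. The genome build behind the probes is not given in the sources used here, so no coordinates are printed.

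Control spots were left out. Each array's 75th percentile was subtracted from log2 intensity, computed here and not by the authors. Of 43603 probes, 34285 matched a locus in a reference table (TAIR10.1, used for names only). 31897 were well above background on both arrays of either 48 h group, after 108 were dropped for outlier calls, and 0 spots were saturated. The brightest kept probe stood for a gene, which gave 20192 genes, 6046 of them with several probes.

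limma 3.58.1 in R 4.3.3 fitted 6 group means to all 12 arrays, with 6 residual and 2.56 prior degrees of freedom. The test was checked on simulated data. The number of arrays limits the precision. The members and the 24 function lists (476 entries, 458 matched, 431 tested) and 7 marker lists were chosen with earlier results of these data known. Named are RDM4, 7 cold genes, the 15 largest passing rises and 15 largest falls with a symbol and separate arrays, and up to 4 passing genes per list with the largest differences. Other genes were named after their values were seen, to give a list in full or a gene outside the rule.

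Same-numbered arrays did not deviate together at 48 h (correlation −0.017), so no pairing was used. Alternatives were normexp correction (from median signal and background, offset 50, since the planned mean signal is not among the columns used here), other scalings, filters and variance models, blocks, the deposited value table, single arrays left out and, added after the data were seen, the scanner median signal and slide as a random block.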

Additional observations from a re-analysis of the deposited data

Results flagged for a closer look

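The genotype difference at 48 h differed from that at 0 h or 3 h, by the test of the change itself in limma, for the genes below. The values are the difference at 48 h minus the earlier one, on the log2 scale, so a positive value means that overexpression plants moved up relative to wild type plants. Causes were not tested.

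Against 0 h the defence and surface receptor genes moved up: PCR1 by 3.59, PCC1 by 3.29, PR1 by 2.69, PR2 by 2.19, ACD6 by 2.04, CRK6 by 2.39, CRK7 by 2.36, CRK4 by 1.87, CRK14 by 1.5, RLP23 by 3.86 and RLP11 by 2.17. The defensins moved by 1.87 (PDF1.2A), 1.49 (PDF1.2B), 1.33 (PDF1.3) and 1.27 (PDF1.2C). Among iron genes MYB72 moved by 1.99, BHLH100 by 1.56 and BHLH101 by 0.81. Cold and early stress genes moved too, with RD29B at 1.29, CBF1 at 0.89, WRKY40 at 0.62, DEAR1 at 0.52, DREB2A at 0.47 and ERF6 at 0.36. In the abscisic acid list HAI1 moved by 0.73, RD26 by 0.58 and CYP707A4 by 0.35. Sugar and ageing genes moved by 1.57 (GPT2), 1.57 (BAM5), 0.91 (DIN2), 0.69 (NAP) and 0.34 (APL3). LBD8 moved by 4.12, PAP14 by 3.6 and TT19 by 0.28. SRO4 moved by −5.09, BXL1 by −0.72, SEN1 by −0.53, HB53 by −0.45, ATOEP16-2 by −0.36, GOLS2 by −0.36 and RVE4 by −0.21.

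Against 3 h the same test passed for PCR1 at 1.40, PCC1 at 1.75, PR1 at 1.74, PR2 at 1.00, ACD6 at 0.62, CRK6 at 1.60, CRK14 at 1.22, CRK4 at 0.69 and RLP11 at 1.56. The defensins moved by 2.19 (PDF1.2A), 1.98 (PDF1.2B), 1.77 (PDF1.3) and 1.67 (PDF1.2C), having been lower in overexpression plants at 3 h. Iron genes moved by 2.29 (MYB72), 1.26 (BHLH100) and 0.58 (BHLH101). The anthocyanin genes TT19, UF3GT, TT8 and PAP1 moved by 0.81, 0.64, 0.57 and 0.48. Further genes that moved up were LBD8 by 4.25, BAM5 by 1.08, GPT2 by 0.81, RD29B by 0.66, HAI1 by 0.54, CBF1 by 0.51, HRA1 by 0.40 and SAG29 by 0.39. SRO4 moved by −3.47, DSI-1VOC by −0.94, BXL1 by −0.89, HB53 by −0.77, TIP3;1 by −0.67 and SEN1 by −0.63. LBD8, RLP23, MYB72, RLP11, PAP14, SRO4 and ATOEP16-2 were not above background in 1 genotype at 48 h, so their values are not bounds. At 0 h and 3 h LBD8 and MYB72 had means of −9.70 to −9.26 in both genotypes, and SRO4 had −9.44 and −9.40 at 3 h. LBD8 was not above background at such a level in wild type plants at 48 h (mean −9.36). The earlier differences of these genes at those times are therefore between very dim signals.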

How the results depend on the processing

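The number of genes passing at 48 h (808) was 343 under normexp correction, 537 with no background filter, 340 with the deposited value table, 250 with the 48 h arrays alone, 381 with slide as a block and 370 with the scanner median signal, and 394 to 964 with single arrays left out. It was 964 without overexpression replicate 1, 518 without overexpression replicate 2, 394 without wild type replicate 1 and 425 without wild type replicate 2. For the difference against 0 h (1160) the counts were 598 under normexp, 483 with the value table, 397 with slide as a block, 577 with the median signal and 622 to 1282 with single arrays left out, lowest without wild type replicate 2. Against 3 h (326) they were 97 under normexp, 196 with no filter, 103 with the value table, 111 with the median signal and 169 to 327 with single arrays left out, lowest without wild type replicate 1. Every other setting run, single arrays aside, gave a count within 1.5 times. With the replicate number as a block 950 genes passed, 769 of the 808 among them. Of 70 passing named genes other than RDM4, 30 lost the call under normexp, 29 with the value table, 32 with the 48 h arrays alone, 25 with slide as a block, 26 with the median signal, 13 with no filter and 13 to 24 without 1 array. HSP90.1 turned to −0.29 with the mean of its probes (adjusted p = 0.549). RDM4 passed in every setting at 5.33 to 5.62. The cause of these changes was not tested. The deposited value table's column for overexpression 48 h replicate 2 does not equal that array's scanner median signal, unlike the other 11. Genes not above background in 1 genotype have only a bound on their fold.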

Other observations

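Some further defence and surface genes, picked after their values were seen, had higher levels at 48 h and lower levels before cold in overexpression plants. The wall-associated kinase WAK1 was at −0.99 and −1.03 in overexpression plants, against −1.98 and −2.06 in wild type plants (2.02-fold, limma adjusted p = 1.05e-05), with a difference of −0.79 at 0 h. The glucanase BG3 was at −4.63 and −4.44 in overexpression plants, against −5.66 and −5.74 in wild type plants (2.24-fold, adjusted p = 2.51e-04), with −1.79 at 0 h. The receptor-like protein RLP38 was 2.15-fold higher at 48 h, with −0.61 at 0 h.

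A further 3 genes, picked the same way, were lower in overexpression plants both times. The seed protein GEA6 differed by −0.49 at 48 h and −1.01 at 0 h, the cystatin CYS2 by −0.47 and −0.48, and ICL, the partner enzyme of MLS in the glyoxylate cycle, by −0.47 and −0.82. GEA6 did not pass at 48 h under normexp correction (adjusted p = 0.0639).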
